A study of Mus musculus with 2 samples.

Results

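Double-negative T cells with NK-like genes were described in the inflamed spinal cord of mice with experimental autoimmune encephalomyelitis (EAE), a model of autoimmune inflammation of the central nervous system. They were chosen by their counts. A cell belonged to the set when it had at least 2 summed counts of the CD3 chains Cd3d, Cd3e and Cd3g and at least 1 count of Xcl1, Cd160, Klra6 or Klra7. It also had to have 0 counts of Cd4, Cd8a, Cd8b1, Foxp3, Trdc and Ncr1, and a mitochondrial share of at most 20%. This gave 345 of 20504 kept cells, or 345 of the 9152 cells that passed the CD3 condition. The study sequenced RNA of single CD45+ cells (leukocytes and microglia) taken from spinal cord on day 15 of EAE in 4 C57BL/6 mice. Of these, 2 mice received no inhibitor and 2 received one, and the sources used here give no name, target or dose for it. Each is a separate animal. Each mouse carried its own hashtag, and all 4 were pooled on 1 BD Rhapsody run amplified by TAS-Seq. The series title names STAP-1 mice, but the labels of all 4 hashtags used here say C57BL/6 and name no altered allele.

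Most T cells carry an alpha-beta receptor together with the co-receptor CD4 or CD8, and double-negative T cells lack both. In this set the lack was judged from RNA counts alone. A CD4 or CD8 T cell whose co-receptor RNA was missed would also be a member, and the number of such cells was not tested. Some T cells also express receptors best known from NK cells. The Ly49 family, encoded by the Klra genes, and CD94, encoded by Klrd1, bind MHC class I or related molecules, CD160 binds herpesvirus entry mediator and class I molecules, and the chemokine XCL1 attracts dendritic cells that bear XCR1. Gamma-delta T cells carry another receptor, built from Trg and Trd chains, and in the inflamed central nervous system a subset of them makes IL-17A.

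The cells came evenly from both untreated mice, with 112 and 112, and in smaller number from the treated mice, with 57 and 64. Their counts summed to 1213700 and 1106551 in the untreated mice and to 850419 and 856009 in the treated mice. The median cell had 7949 and 7207 counts in the untreated mice against 11354 and 9611 in the treated mice. No cell barcode number was shared between mice. Over all 4 mice the median member had 8357 counts and 1533 genes, and the median kept cell 8662 counts and 1477 genes.

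RNA of other cell types was present in the members and has to be read beside each result. Of the 345 members, 176 carried at least 1 of 7 lineage genes of other cells (Csf1r, Cd79a, Csf3r, C1qb, Siglech, Itgax, Hbb-bt). The summed level of 6 neutrophil markers was 20444 and 48506 CPM (counts per 1000000 counts of the sum) in the untreated mice and 57241 and 24655 CPM in the treated mice, and all 6 were detected. The 6 microglia and macrophage markers summed to 2989 and 2144 CPM against 775 and 965 CPM, so microglial RNA was higher in both untreated mice. A stricter set, called marker-free here, was therefore defined after the data had been seen. It also required 0 counts of 24 genes of neutrophils and their precursors, microglia, B lineage, dendritic and red blood cells, and it held 133 cells, with 50 and 49 in the untreated and 13 and 21 in the treated mice. The main results are given for both sets.

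The 4 entry genes chose the cells, so their levels are a description. Xcl1, on chromosome 1 at 164931644 to 164935527 of GRCm38, was detected in 217 members (62.9%), and in 98 of them it was the only entry gene. Its level was 367 and 383 CPM in the untreated mice and 241 and 604 CPM in the treated mice, so the treated mice lay on both sides of the untreated ones. Klra7, on chromosome 6 at 130218605 to 130233322, was detected in 145 members and was the only entry gene in 41. Cd160, on chromosome 3 at 96798763 to 96829351, was detected in 122 members, with 43 by this gene alone. Klra6, on chromosome 6 at 130013033 to 130026954, was detected in 82 members, with 11 by this gene alone. The entry genes overlapped in part. A single entry gene was seen in 193 members (55.9%), 2 in 99, 3 in 37 and all 4 in 16, and Klra6 and Klra7 were both present in 46 of the 181 members that had either. The Klra genes form a family in which some members share sequence. Of the 50-letter words in the annotated Klra6 transcripts 2.62% also occur in another Klra gene, and of those in Klra7 12.3%, with 0% shared between Klra6 and Klra7 themselves. For Klra8 and Klra9 the share was 33.1% and 31.5%, so their reads could be split between genes.

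Many members sat at the edge of the rule. The summed count of the entry genes was exactly 1 in 71 members (20.6%), and the median was 6. These single-count cells made up 15.2% and 16.96% of the members in the untreated mice and 35.1% and 23.4% in the treated mice. The CD3 sum was exactly 2 in 32 members, with a median of 12. Cells just outside the rule were the 2672 other double-negative T cells, which had 0 counts of all 4 entry genes by definition. Cells with more entry counts were also detected more often for other genes. Ccl5, a chemokine of effector T and NK cells, was detected in 28.2% of members with an entry sum of 1, 56.9% of those with 2 or 3 and 80.1% of those with 4 or more. Klrd1 followed the same order at 22.5%, 46.6% and 64.8%. Il2rb, the receptor chain that binds IL-2 and IL-15, was detected in 39.4%, 65.5% and 76.4%. The alpha receptor constant gene Trac varied less, at 56.3%, 65.5% and 69.0%. The median depth of the first group was 8672 counts and of the last 9006.5 counts (both medians over cells).

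**Figure D1:**
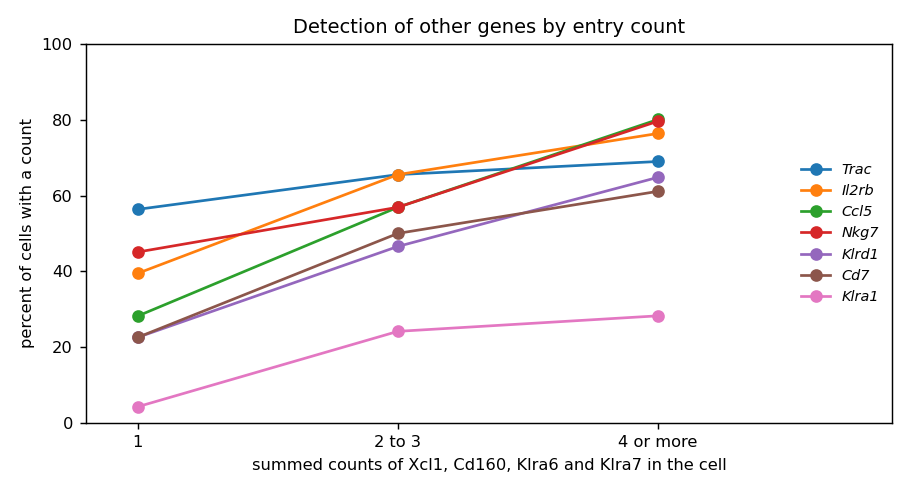
Percent of members with at least 1 count of each of 7 genes (y axis, linear) against the summed count of the 4 entry genes in the cell (x axis, 71, 58 and 216 cells). Ccl5 was detected in 28.2% of the first and 80.1% of the last group, while Trac lay between 56.3% and 69.0%.

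Most members carried RNA of T cell receptor chains. Trac, on chromosome 14 at 54220521 to 54224206, was detected in 227 members (65.8%), and Trac or one of the beta constant genes Trbc1 and Trbc2 in 315 (91.3%). A gamma constant gene, Trgc1, Trgc2 or Trgc4, was detected in 99 members (28.7%). In 70 of these 99 Trac was detected too, and 29 had gamma without Trac. Free RNA can place a count in a cell that does not make it. As a background, Trac was detected in 10.2% of 4300 gated neutrophils and a gamma constant gene in 0.953%, at a median depth of 8519 counts. Trbc1 was detected in 60.3% of members, 8.19% of neutrophils and 73.2% of gated NK cells, and Trbc2 in 83.5%, 12.3% and 53.5%. A beta constant gene was thus also common in gated NK cells, of which 10.8% had Trac. Among gated CD8 T cells, 74.7% had Trac and 9.53% a gamma constant gene, and among gamma-delta T cells 35.1% and 80.5%. Members lay between CD8 and gamma-delta T cells in both shares. Trgc4, which led the cells from which the set was proposed, stood at 99.7 and 59.6 CPM in the untreated mice and 56.4 and 65.4 CPM in the treated mice.

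The share of these cells was lower in the treated mice among all cells, short of the threshold. They made up 2.37% (95% Wilson interval 1.97% to 2.85%) and 2.26% (1.88% to 2.71%) of kept cells in the untreated mice. In the treated mice the shares were 1.01% (0.779% to 1.30%) and 1.24% (0.970% to 1.58%). The groups did not overlap, at 2.32% ± 0.08 (SD, n = 2) against 1.12% ± 0.16 (SD, n = 2). The log2 fold change was -1.04 ± 0.28 (SE), with an adjusted p of 0.0622 over 10 cell classes in the edgeR quasi-likelihood test. An exact permutation test of 2 mice against 2 cannot give a two-sided p below 0.333. The lower share was not particular to this set. Gamma-delta T cells made up 3.39% and 3.53% of kept cells in the untreated mice and 1.20% and 1.35% in the treated mice. Regulatory, CD4 and other double-negative T cells were also lower in both treated mice than in both untreated mice. For CD8 T cells and NK cells the groups overlapped. Gated neutrophils made up 12.4% ± 2.00 of kept cells in the untreated and 28.3% ± 10.8 in the treated mice (SD, n = 2 each). Since shares of kept cells sum to the whole, the share among CD3-gated cells was taken as well. It was 4.55% and 3.73% in the untreated mice and 3.88% and 2.89% in the treated mice. These ranges overlapped, with a log2 fold change of -0.30 ± 0.30 and an adjusted p of 0.385 in edgeR. The call on kept cells depended on the setting. The adjusted p was 0.0206 without the second treated mouse, where the lone treated mouse is assumed to vary like the untreated ones, and 0.0215 in the marker-free set (log2 fold change -1.69), and scaling over classes by TMM gave -0.58 with 0.326. In the marker-free set the share among CD3-gated cells had a log2 fold change of -0.98 and an adjusted p of 0.0538 in edgeR. The marker-free rule kept 44.6% and 43.8% of the members in the untreated mice and 22.8% and 32.8% in the treated mice. The kept cells and the CD3-gated cells were not filtered in this way. Fewer such cells and less RNA per cell for the gate genes cannot be told apart here.

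**Figure D2:**
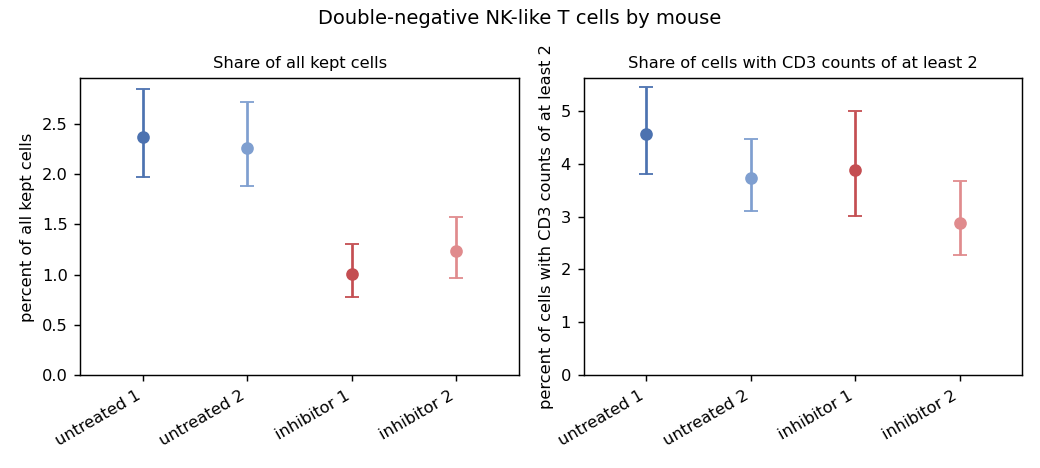
Share of double-negative NK-like T cells in each of the 4 mice (points, with 95% Wilson intervals as bars, y axis in percent from 0), among all kept cells on the left and among CD3-gated cells on the right. The treated mice lie below both untreated mice on the left (1.01% and 1.24% against 2.37% and 2.26%), and the groups overlap on the right.

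Set against CD8 T cells of the same mice, the members had more RNA for NK receptors, for Il2rb and Cd7 and for the transcription factor gene Ikzf2, and less for granzymes A and K. CD8 T cells here were the 1018 cells with CD3 and CD8 counts, chosen without regard to the entry genes. Genes that accompany the entry genes in a cell can be raised by the choice of members, and the size of that part was not tested. Of 10834 genes tested with mouse as a block, 22 were higher in the members (0.203%) and 21 lower (0.194%). Klra1, another Ly49 receptor, stood at 145, 130, 122 and 153 CPM in the members (untreated 1 and 2, then treated 1 and 2). In CD8 T cells it stood at 10.1, 24.4, 2.97 and 0.261 CPM in the same order, below every member sum. The log2 fold change was 4.38 ± 0.65, with an adjusted p of 0.0200 in edgeR. Klrb1c, which encodes NK1.1, stood at 71.7, 123, 136 and 133 CPM against 8.08, 11.6, 2.60 and 13.9 CPM. Its log2 fold change was 3.75 ± 0.37 (edgeR adjusted p 0.00320), and the 2 gates did not overlap.

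Of 26 tested genes on a list of NK receptors and adaptors, 11 were higher in the members and none lower, with a median log2 fold change of 1.504 over the list beside -0.05 over all genes tested. Klrd1 rose by 1.12 ± 0.16 on the log2 scale (edgeR adjusted p 0.0165), and Klre1, Klrc2, Klra4, Klra5, Klra8, Klra9, Klrb1a and the signalling adaptor Fcer1g passed as well. Il2rb stood at 506, 497, 263 and 429 CPM in the members and at 228, 189, 117 and 244 CPM in CD8 T cells, higher in each mouse (log2 fold change 1.17 ± 0.15, edgeR adjusted p 0.0104). Cd7, a surface protein of T and NK cells, stood at 668, 645, 397 and 459 CPM against 166, 161, 120 and 166 CPM (1.85 ± 0.15, edgeR adjusted p 0.00105). Ikzf2, which encodes Helios, stood at 199, 165, 115 and 134 CPM against 48.9, 45.3, 21.6 and 30.1 CPM (2.15 ± 0.18, edgeR adjusted p 0.00105). For both genes every member sum was above every CD8 sum. The gamma constant gene Trgc2 was also higher (2.10 ± 0.32, edgeR adjusted p 0.0205).

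Among the lower genes, Gzmk, a granzyme of memory CD8 T cells, stood at 6.59, 0, 14.1 and 3.50 CPM against 147, 91.2, 99.6 and 97.0 CPM (log2 fold change -4.28 ± 0.50, edgeR adjusted p 0.00821). Gzma fell by 1.26 ± 0.20 (adjusted p 0.0288); in this gene no small nonzero count appears in the files, and a 0 can stand for a low count removed before deposit. Of 14 cytotoxic genes tested, these 2 passed, both lower. The co-inhibitory receptor gene Lag3 was lower (-1.12 ± 0.20, adjusted p 0.0483), as were Ly6a and Actn2. C1qa, Grn, Olfml3 and Cx3cr1, also among the lower genes named by size, are known from microglia, whose 6 markers summed to 775 to 2989 CPM in the members and 1684 to 5772 CPM in CD8 T cells. Their part in the result was not tested, and Grn changed sign in cells free of the 7 lineage genes. Trac did not pass (-0.11 ± 0.18, edgeR adjusted p 0.908), nor did Ccl5 (0.03 ± 0.16, adjusted p 0.978). The CD8 call counts were sensitive to single mice. They fell to 6 higher and 2 lower without the first untreated mouse, 8 and 11 without the second, 9 and 11 without the first treated mouse and 10 and 7 without the second. In the marker-free cells of both gates, of 5554 genes tested, Klra1, Klrb1c, Cd7 and Fcer1g were higher and Ly6a lower, and all 5 were also called with all members. Ikzf2, Gzmk and Gzma kept their direction there but did not pass (edgeR adjusted p 0.129, 0.118 and 0.207). No gene on the cytokine receptor list, which holds Il2rb, passed in these cells. In the same cells the NK receptor genes Klra9 and Klrc2 did not pass either. Fcer1g had a log2 fold change of 3.28 ± 0.42 in marker-free cells (edgeR adjusted p 0.00226), against 0.68 ± 0.12 with all members.

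**Figure D3:**
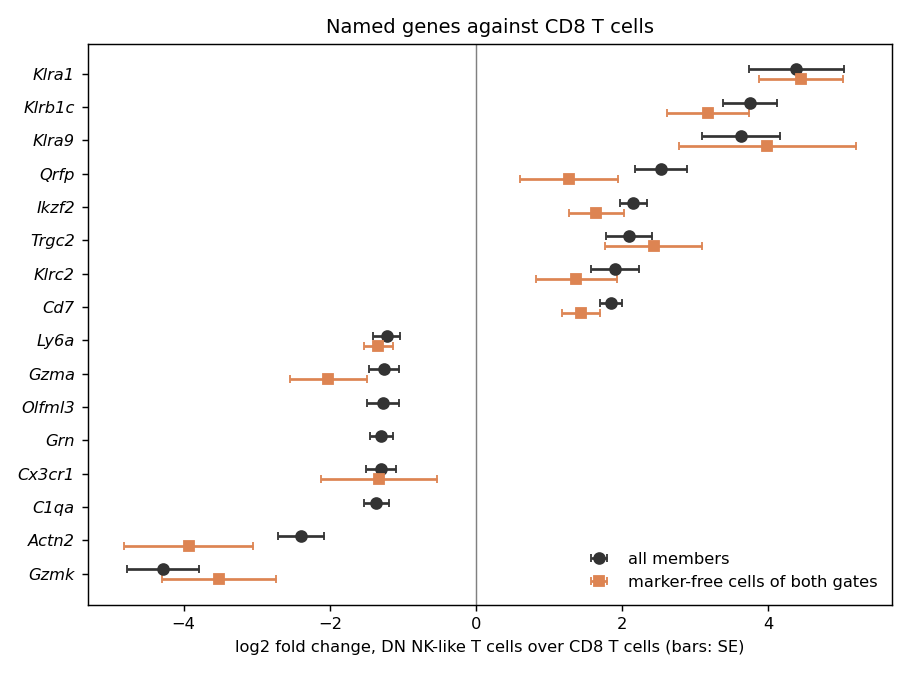
Log2 fold change of double-negative NK-like T cells over CD8 T cells (x axis, with SE bars from edgeR) for the 16 named genes, in all members (circles) and in marker-free cells of both gates (squares, where tested). Klra1 lies at 4.38 and 4.45 and Cd7 at 1.85 and 1.44, and Gzmk at -4.28 and -3.52. Gzmk did not pass in the marker-free cells (edgeR adjusted p 0.118).

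Set against NK cells, gated by Ncr1 with 0 counts of CD3, Cd79a and Csf3r and numbering 157, the members had more RNA of the T cell receptor genes Trac, Trbc2 and Trgc2 and less RNA of the killing machinery. Of 7653 genes tested with mouse as a block, 151 were higher in the members (1.97%) and 57 lower (0.745%). The 2 gates were chosen on opposite CD3 counts, so genes that accompany CD3 in a cell can be raised by the choice. They were also chosen on opposite Ncr1 counts, so NK receptor and killing genes that accompany Ncr1 can be lowered by it. The size of either part was not tested. Trac stood at 608, 507, 340 and 349 CPM in the members and at 40.02, 5.99, 37.9 and 6.47 CPM in NK cells (log2 fold change 4.71 ± 0.43, edgeR adjusted p 0.000128). Trgc2 had 0 counts in NK cells of all 4 mice, against 101, 50.6, 45.9 and 67.8 CPM in the members. It entered the test only through the member sums, so a higher call was the only one possible and its levels are a description. Trbc1, Trgc1 and Trgc4 did not pass, with log2 fold changes of 0.26 ± 0.18, 2.95 ± 0.87 and 0.40 ± 0.38 (adjusted p 0.675, 0.129 and 0.797). Cd5 and Cd6, scavenger receptors of T cells that restrain receptor signalling, were higher as well, with 62.6 to 123 CPM for Cd5 in the members and at most 3.23 CPM in NK cells. Both were near 0 in NK cells and entered the test in the same way as Trgc2. Lat, the adaptor below the T cell receptor, rose by 2.11 ± 0.29 (edgeR adjusted p 0.00177), and Ikzf2 by 2.22 ± 0.37 (adjusted p 0.00558). Ly6c2, a surface protein of memory T cells and monocytes, stood at 2020 to 2139 CPM in the members and at 248 to 428 CPM in NK cells (2.86 ± 0.17, edgeR adjusted p 5.87e-06).

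Perforin, Prf1, stood at 25.5, 46.1, 67.0 and 78.3 CPM in the members and at 1196, 932, 1719 and 687 CPM in NK cells (log2 fold change -4.27 ± 0.34, edgeR adjusted p 5.69e-05). Granzyme A, Gzma, stood at 249, 109, 243 and 231 CPM against 5835, 4232, 8145 and 5265 CPM (-4.71 ± 0.16, edgeR adjusted p 2.18e-08). Of 13 cytotoxic genes tested, 7 were lower and none higher, with a median of -1.80 beside 0.09 over all genes. Of 24 NK receptors and adaptors tested, 13 were lower and none higher, with a median of -1.24. Klra4 fell by 4.14 ± 0.30 and Klrb1b by 3.79 ± 0.28 on the log2 scale (edgeR adjusted p 3.20e-05 for both), and Klrb1c had a log2 fold change of -2.20 ± 0.20 (adjusted p 0.000113). The members thus stood between CD8 T cells and NK cells for Klrb1c. Klra1 did not pass against NK cells (0.56 ± 0.29, edgeR adjusted p 0.512). Of 16 interferon-stimulated genes tested 3 were higher, Ifi27l2a, Ifit1 and Ifit3, and of 13 genes of the mitochondrial genome 6 were higher. Among transcription factors, Eomes, Irf8, Id2, Bhlhe40 and Prdm1 were lower. Of the 16 genes named by size, Cma1, a mast cell protease gene, and Khdc1a had 0 counts in all member sums. These genes entered the test only through the NK sums, so a lower call was the only one possible. C1qa, C1qc, Cd14 and Trem3, known from macrophages, monocytes or granulocytes, were higher in the members. The 6 microglia markers summed to 76.0 to 129 CPM in NK cells and the 6 neutrophil markers to 632 to 14122 CPM, both below the members of the same mouse, and the part of this RNA in the result was not tested. Cells with the neutrophil gene Csf3r were kept out of the NK gate only. The NK gate held 58, 35, 18 and 46 cells. The counts of calls fell to 76 higher and 34 lower without the first untreated mouse and to 71 and 35 without the second treated mouse. In marker-free cells, of 2395 genes tested 34 were higher and 22 lower, and 34 of the 56 were among the calls over all members, Trac, Ly6c2, Gzma and Prf1 included. Most genes higher there were ribosomal protein or mitochondrial genes with small log2 fold changes, such as Rps19 at 0.97 and mt-Co1 at 0.47. Trac, Trbc2, Lat, Ly6c2 and Ifi27l2a had larger ones. The marker-free NK cells numbered 18, 15, 8 and 19. There Trgc2, Cd6 and Cd5, all at 0 in the NK cells of every mouse, did not pass (edgeR adjusted p 0.0872, 0.0744 and 0.0742), nor did Ikzf2 (2.40 ± 0.86, adjusted p 0.257).

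Set against gamma-delta T cells, gated by Trdc and numbering 473, the members had little RNA for the genes of the IL-17-producing subset. Of 8786 genes tested with mouse as a block, 15 were higher in the members (0.171%) and 76 lower (0.865%). The 2 gates were chosen on opposite Trdc counts, so genes that accompany Trdc in a cell can be lowered by the choice, and the size of that part was not tested. Il17a, the cytokine gene of that subset, stood at 1.65, 9.94, 0 and 1.17 CPM in the members and at 204, 369, 170 and 123 CPM in gamma-delta T cells. The log2 fold change was -6.10 ± 0.44, and every member sum was below every gamma-delta sum. Of 9 tested genes on a list of type 17 gamma-delta genes, 8 were lower and none higher, with a median of -5.61 beside 0.01 over all genes. Among them were Il17a, the transcription factor genes Sox13 and Maf, the kinase gene Blk, the receptor genes Il17re and Cd163l1, and 5830411N06Rik. The filter on low counts passed 1 gene of this list against NK cells and 2 against CD8 T cells. List genes near 0 in the members entered the test only through the gamma-delta sums. For them a lower call was the only one possible, so the 8 calls and the median are a description. Blk stood at 0, 0, 2.35 and 18.7 CPM against 170, 279, 235 and 221 CPM (-5.76 ± 0.70).

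Il7r, the IL-7 receptor chain, fell by 1.99 ± 0.19 (edgeR adjusted p 0.00125), and the homing genes Ccr2, Cxcr6 and Itgb7 were lower as well. The gamma constant genes Trgc1, Trgc2 and Trgc4 were lower by 3.22 ± 0.33, 2.02 ± 0.28 and 1.60 ± 0.19 on the log2 scale (edgeR adjusted p 0.00215, 0.0100 and 0.00518). Trac was higher at 1.47 ± 0.19 (adjusted p 0.00620). Ccl5 stood at 3858, 3221, 2342 and 3338 CPM against 1209, 1049, 908 and 1496 CPM (1.499 ± 0.12, edgeR adjusted p 0.000413). Klra1, Klrb1c, Klrd1, Tyrobp and the granule gene Nkg7 were higher too. Gamma-delta T cells were chosen without regard to the entry genes. Genes that accompany the entry genes in a cell, Ccl5 and Klrd1 among them, can be raised by the choice of members. The size of that part was not tested. Of 24 NK receptors and adaptors tested, 4 were higher and none lower. Fcnb, a granulocyte gene, was named among the higher genes. Its level was 85.8 and 157 CPM in the treated mice against 6.59 and 6.33 CPM in the untreated mice. In each treated mouse 2 members carried it, and 1 cell held 56 of 73 and 112 of 134 counts. The counts fell to 7 higher and 29 lower without the first untreated mouse, 9 and 38 without the second, and 5 and 24 without the first treated mouse. In marker-free cells, of 4431 genes tested 20 were higher and 48 lower, and 42 of the 68 were also called over all members, Il7r, Trac, Ccl5 and Klra1 included. Il17a and Blk were among the 42 too, and their calls remain a description.

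**Figure D4:**
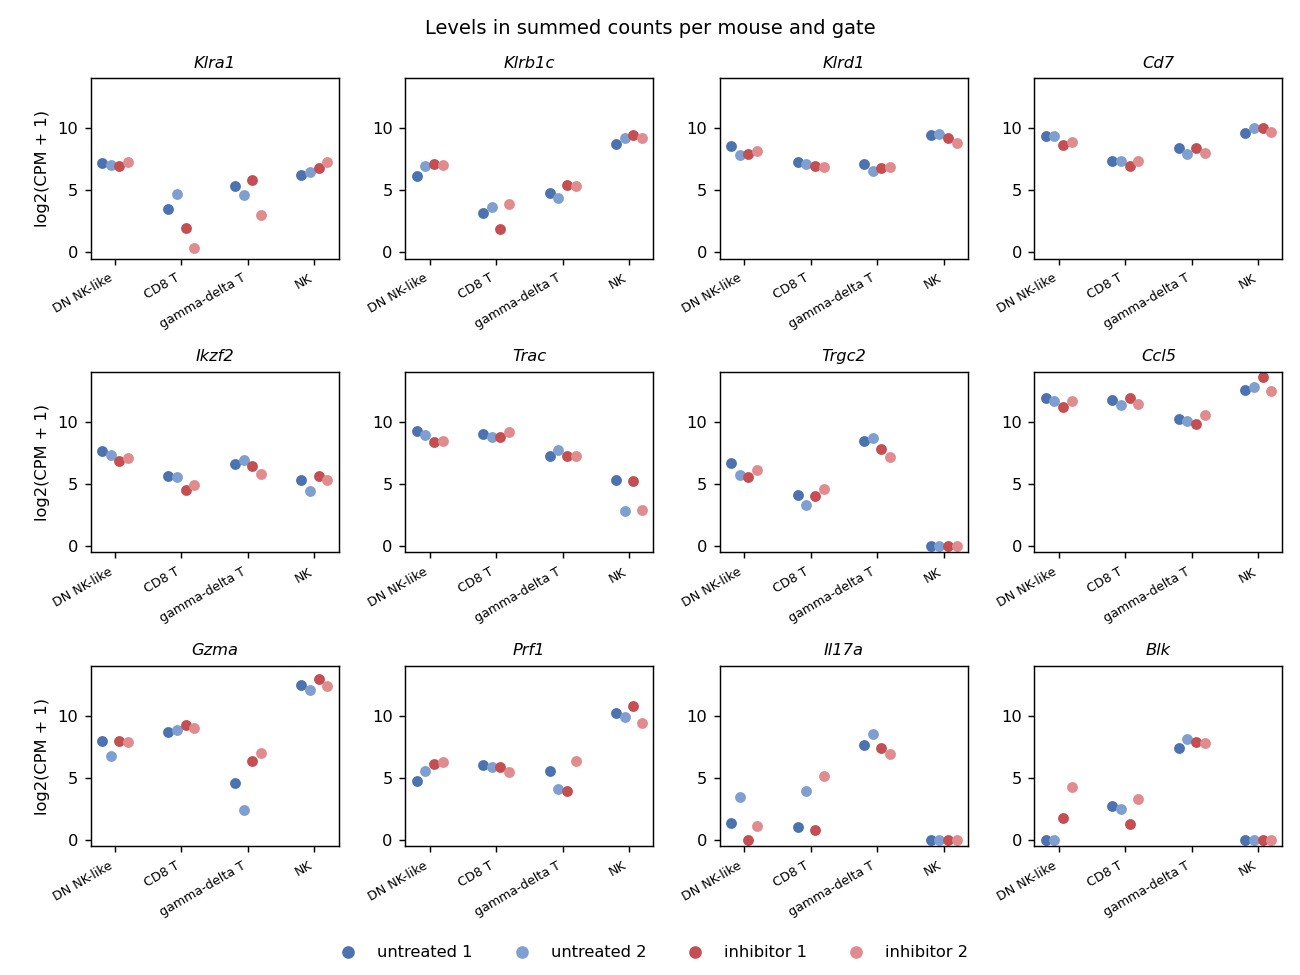
Levels of 12 genes as log2(CPM + 1) (y axis, the same in all panels) in counts summed per mouse for 4 gates, with 1 point per mouse. In the members Klra1 lies between 122 and 153 CPM and above every CD8 sum, Prf1 and Gzma lie below every NK sum, and Il17a and Blk below every gamma-delta sum.

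Within the members, few genes differed between treated and untreated mice, and those higher in the treated mice rested on few cells. Of 9110 genes tested, 9 were higher (0.0988%) and 1 lower (0.011%) in the treated mice by edgeR. The 9 were Mpo, Prtn3, Ctsg, Elane, Ms4a3, Gstm1, Fcnb, Myb and Igfbp4, several of them known from granulocyte precursors, where Mpo, Prtn3, Ctsg and Elane encode enzymes of the granules. Mpo, on chromosome 11 at 87793581 to 87804413, was listed at 0 in both untreated mice and had 2152 and 2331 counts in the treated mice. Of these, 2061 and 2260 counts came from 1 cell in each treated mouse. Those cells had 146105 and 95954 counts in all, a CD3 sum of 4 and 2, and an entry sum of 1 and 1. Prtn3 had 7 and 13 counts against 1477 and 1515, of which the same cells gave 1384 and 1372. C1qa, a complement gene of microglia, was the lower gene, at 651 and 524 CPM against 132 and 167 CPM (log2 fold change -1.99 ± 0.26, edgeR adjusted p 0.0390), and 11 and 8 untreated members carried it.

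When the members with Mpo were left out, an alternative chosen after seeing the data, 0 of 8787 genes passed, with 343 at an unadjusted p under 0.05. C1qa still had a log2 fold change of -1.70 ± 0.27 (edgeR adjusted p 0.609). In cells free of the 7 lineage genes 9 genes were higher and 0 lower, and there the 6 neutrophil markers summed to 148 and 204 CPM in the untreated and 48434 and 22532 CPM in the treated mice. In the marker-free set 0 of 4239 passed, with 219 at an unadjusted p under 0.05. DESeq2 called 36 higher and 14 lower over all members. The count of higher genes was 0 without the second untreated mouse, 4 without the first and 37 without the second treated mouse. The lower count was 0 without either untreated mouse, 2 without the first treated mouse and 10 without the second. With the mouse numbers as a block 5 genes were higher and 0 lower, and the numbers only name the mice.

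**Figure D5:**
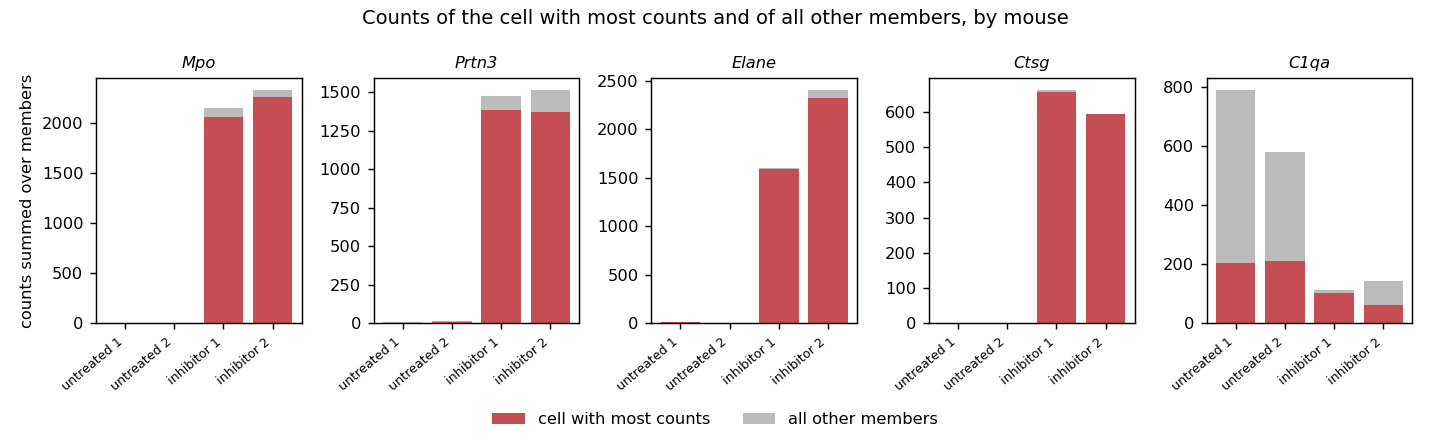
Counts of 5 genes summed over the members of each mouse (y axis, linear from 0, its own scale in each panel), split into the cell with the most counts and all other members. In the treated mice 1 cell held 2061 of 2152 and 2260 of 2331 Mpo counts, while C1qa was spread over 11 and 8 untreated members.

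No T cell or NK gene on the 19 lists passed the test of treated against untreated mice. Trac stood at 608 and 507 CPM in the untreated mice and 340 and 349 CPM in the treated mice (log2 fold change -0.71 ± 0.22, edgeR adjusted p 0.472). Trbc1 and Trbc2 had values of -0.63 ± 0.25 and -0.49 ± 0.26 (adjusted p 0.609 and 0.751). For Trac the value was -0.45 ± 0.34 in the marker-free set. The median over Trac, Trbc1 and Trbc2 was -0.63 with all members and -0.34 without the members holding Mpo. Ifng, the interferon-gamma gene, stood at 211 and 218 CPM against 242 and 241 CPM (0.15 ± 0.25, edgeR adjusted p 0.943). Tnf had a value of -0.28 ± 0.32 and the lymphotoxin gene Ltb of -0.80 ± 0.31 (adjusted p 0.890 and 0.609). Of the other cytokine genes tested, Csf1, Lta, Osm, Tgfb1 and Flt3l lay between -0.96 and 0.52. Stap1, the gene of the adaptor named in the series title, stood at 73.3 and 83.1 CPM against 50.6 and 77.1 CPM (-0.32 ± 0.38, edgeR adjusted p 0.895).

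All 16 cell cycle genes tested had positive values, with a median of 1.49 beside -0.01 over all genes, and none passed. Mki67, the proliferation gene nearest the threshold, stood at 32.1 and 43.4 CPM against 252 and 155 CPM (2.41 ± 0.37, edgeR adjusted p 0.0898). The median was 0.81 with 14 of 15 genes positive without the members holding Mpo, and Mki67 then had 2.19 ± 0.51 (adjusted p 1.00). All 9 co-inhibitory genes tested had negative values, with a median of -0.87. The median was -0.54 without the members holding Mpo and 0.20, with 2 of 4 genes positive, in the marker-free set. In the marker-free set 9 of 10 cell cycle genes had positive values, with a median of 0.53.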

How the data were processed

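The authors deposited whole-number counts, not scaled for depth, as 1 table of 28482 genes by 25461 cells. Per the submitters' processing notes the reads were placed on GRCm38. Aligner, counter and strand setting were not given in the sources used here, and a count may stand for a read or for a molecule. The deposited file's name records a DBEC step. In 39 genes, Gzma, Ccl5, Mpo, Ctsg and C1qa among them, no nonzero count lies below 4, so a 0 there is given as listed at 0.

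Group and mouse came from the hashtag in each column name. Columns with more than 1 hashtag (3943) were not used, and 1014 of the 21518 others exceeded 20% mitochondrial counts. No doublet caller was run, so doublets within a mouse remain. The hashtag library was not analysed here. The members and gene lists were chosen with earlier results of these data known.

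Counts were summed per mouse and gate and fitted with edgeR 4.0.16 (R 4.3.3; filterByExpr, TMM, quasi-likelihood test), with mouse as a block between gates, and Benjamini-Hochberg adjustment at 0.05. Genes of the gates were left out of comparisons between gates. CPM is a gene's count per 1000000 counts of the sum. SE is the log2 fold change divided by the root of the F statistic. Shares were tested by edgeR on cell numbers, and 95% Wilson intervals cover counting error only. Against each gate, the text names the 8 highest and 8 lowest called log2 fold changes with the same sign in all 4 mice and at least 50 CPM in the higher gate, and examples of list members that passed; for the inhibitor, the 10 smallest p-values and the receptor, cytokine and Stap members. Alternatives used DESeq2 1.42.0, limma 3.58.1, other filters, scalings and gates, and each mouse left out. The scripts were tested on simulated data. Some list members that passed are not reported here.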

Additional observations from a re-analysis of the deposited data

How the results depend on the processing

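The share among kept cells kept its direction under every alternative run. Its log2 fold change passed the threshold at -1.28 with an entry sum of at least 2 (adjusted p 0.0483), -1.36 in cells free of 7 lineage genes (0.0380) and -1.69 in the marker-free set (0.0215). It ranged from -1.20 to -0.90 when each mouse was left out, and with the replicate block it was -1.05 (0.121). The gates with an entry sum of at least 2, free of 7 lineage genes and marker-free each removed a larger part of the members in the treated mice. The kept cells stayed the same under them. Deviations of same-numbered mice correlated at -0.04 over 9110 genes, and the numbers only name the mice. Among CD3-gated cells the share did not pass the threshold under any alternative run.

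For treated against untreated mice, the counts of higher and lower genes, 9 and 1, were 0 to 37 and 0 to 10 with a mouse left out, 5 and 0 with the replicate block, 36 and 14 with DESeq2 and 16 and 3 with no filter on low counts. They were 0 and 0 with an entry sum of at least 2, in the marker-free set and without members holding Mpo, and 9 and 0 in cells free of 7 lineage genes. Against NK cells, 151 and 57 became 71 to 153 and 34 to 58 with a mouse left out. With no filter they were 322 and 89, in cells free of 7 lineage genes 12 and 18, in marker-free cells 34 and 22, and DESeq2 gave 107 lower. Against CD8 T cells, 22 and 21 became 6 to 10 and 2 to 11 with a mouse left out, 78 and 78 with DESeq2 and 60 and 206 with no filter. An entry sum of at least 2 gave 164 and 119, cells free of 7 lineage genes 4 and 5, and marker-free cells 4 and 1. Against gamma-delta T cells, 15 and 76 became 5 to 17 and 24 to 69 with a mouse left out, 78 and 174 with DESeq2 and 149 and 246 with no filter. An entry sum of at least 2 gave 34 higher, cells free of 7 lineage genes 28 higher, and marker-free cells 48 lower. Fewer genes were tested in the stricter gates. The causes of these shifts were not tested.

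Grn against CD8 T cells reversed to 0.20 in cells free of 7 lineage genes. The marker-free gate and the gate without Mpo were chosen after seeing the data. The NK gate held 18 cells in the first treated mouse, 8 of them marker-free, which limits that comparison. Between treated and untreated mice, leaving one out assumes that the lone mouse of its group varies like the other group.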
